A study of Mus musculus with 17 samples.

Results

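The Egr genes (Egr1, Egr2, Egr3), the Nr4a genes (Nr4a1, Nr4a2, Nr4a3) and Cd69 are switched on in T cells by signalling through the T cell receptor. The members were all probe sets whose only annotated gene is 1 of these 7, and they came to 16 of the 45101 probe sets on the array. The rule reads gene names alone. Egr1 and Nr4a1 had 1 probe set each, as did Cd69, Egr2 and Egr3 had 2 each, Nr4a3 had 3 and Nr4a2 had 6.

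Egr1, Egr2 and Egr3 encode zinc-finger transcription factors that are induced through the MAP kinase and calcineurin arms of T cell receptor signalling. In T cells, Egr2 and Egr3 are best known for restraining activation, partly through the ubiquitin ligase Cblb, while Nab1 and Nab2 bind Egr proteins and repress their activity. Nr4a1 (Nur77), Nr4a2 (Nurr1) and Nr4a3 (Nor1) are nuclear receptors with no known physiological ligand. They bind DNA alone or, for Nr4a1 and Nr4a2, with the retinoid X receptor, and they are linked to regulatory T cell development and to T cell exhaustion. Cd69 is a membrane protein of recently activated lymphocytes that removes the sphingosine-1-phosphate receptor S1pr1 from the cell surface.

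The study asked how retinoic acid (RA) bears on the induction of Foxp3, which directs the regulatory T cell programme, and expression was read on Affymetrix M430v2 arrays. In the co-cultures, splenic CD4+Foxp3- T cells of C57BL/6-Foxp3/GFP mice, in which GFP reports Foxp3, were cultured with dendritic cells (10 T cells per dendritic cell) of the lamina propria of the gut (LP-DC) or of the spleen (Sp-DC). All co-cultures held anti-CD3 (1 µg/ml), TGFbeta (0.6 ng/ml) and IL-2 (5 ng/ml on days 2 and 4), RA was added at 100 nM to one set of the Sp-DC cultures, and after 5 days CD4+ cells were sorted into GFP+ (here Foxp3+) and GFP- (Foxp3-) fractions. This gave 2 arrays each of LP-DC Foxp3-, LP-DC Foxp3+, Sp-DC Foxp3-, Sp-DC Foxp3+ and Sp-DC plus RA Foxp3+ cells, and 1 of Sp-DC plus RA Foxp3- cells. In the memory cultures, CD44hiCD62L-CD25-CD4+ cells of C57BL/6 spleen and lymph nodes, marked by CD45.1 or CD45.2, were cultured with naive CD4+ cells (2 memory cells per naive cell), TGFbeta (10 ng/ml), IL-2 (20 U/ml) and beads carrying anti-CD3 and anti-CD28 for 48 h without RA (3 arrays) or with 100 nM RA (3 arrays), and were then sorted by their marker. Each array carried RNA pooled from 3 male mice aged 6 to 10 weeks, so each array is the unit of replication, and nothing in the labels says whether arrays of the same number shared mice or a culture day.

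Levels below are log2 of the deposited intensities, on which the 17 array medians lay between 5.88 and 5.98, and a level near these medians cannot be told from background. T cell genes were high on all arrays, with all 7 measured markers (Cd3d, Cd3e, Cd3g, Cd4, Cd2, Cd5, Cd28) above the median on all 17. The Foxp3 probe set itself was below the array median on all 11 co-culture arrays (4.48 and 4.53 in Sp-DC Foxp3+, 3.88 and 4.44 in Sp-DC Foxp3- cells), so it did not check the sort. Gpr83 and Izumo1r, which are high in regulatory T cells, were higher in Foxp3+ cells, by 2.54 ± 0.27 (adjusted p = 0.0226) and 1.54 ± 0.11 (adjusted p = 0.0101) on the log2 scale (limma, ± SE). The cytotoxic genes Nkg7 and Klrd1 were above the median on all 11 co-culture arrays and Gzma on all but 1 of LP-DC Foxp3+ cells. Cd8a was above the median on all Sp-DC plus RA arrays, on neither LP-DC Foxp3+ array and on part of the other co-culture arrays. Cd8b1 and Ncr1 were below the median on all 17 arrays.

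Promoter sequence was matched by symbol in RefSeq (GRCm38.p6) for 4 of the 7 genes: Egr2 with 5 start sites and Nr4a1, Nr4a2 and Nr4a3 with 1 each. The search covered the 250 bases upstream of each start on both strands. A CArG box, the site of serum response factor, was found in 4 of the 5 Egr2 windows and in 1.47% of the 32851 windows of all genes. Of these Egr2 windows 3 overlap and hold the same box. TGACGTCA (the cyclic AMP response element) was in none of the members' windows, against 1.55% of all. Its shorter core TGACG, added to the search after the full element gave no match, occurred 4 times in each Nr4a window and 2 times in 3 of the Egr2 windows, and 17.8% of all windows hold it at least once. GCGNGGGCG, an Egr site, was in the Nr4a1 and the Nr4a2 window (4.7% of all windows). No member window held AAAGGTCA (the Nr4a element NBRE, 1.34%), TGANTCA (AP-1, 6.75%), the MEF2 element (CTA and TAG 4 bases apart, 3.2%) or the retinoic acid receptor repeat (AGGTCA and AGGTCA 5 bases apart, 0.00913%). An NF-kB-like match (GGG and CC 5 bases apart) was in 4 of the 5 Egr2 windows and in the Nr4a2 window (45.8%). The 3 overlapping Egr2 windows share their TGACG and NF-kB-like matches too. All matches given here are of letters and were not tested as sites. For each gene the 30 bases holding the most CArG and TGACG matches follow, with capitals for those matches on either strand. Those of Egr2 and Nr4a1 lie wholly, and that of Nr4a3 partly, within the span of the gene in RefSeq's gene table, downstream of another start of that gene, and may hold transcribed sequence.
Egr2 (chr10:67537793-67537822, + strand): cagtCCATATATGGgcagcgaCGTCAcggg
Nr4a1 (chr15:101266611-101266640, + strand): tgCGTCAatggaaccccgcgtgCGTCAcgc
Nr4a2 (chr2:57124120-57124149, - strand): cgCGTCAcggagcccggccgggcTGACGgg
Nr4a3 (chr4:48045071-48045100, + strand): gggTGACGtagcgtcccatgtCGTCAcatt

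Of the 16 probe sets, 10 passed the filter in the co-cultures (above the array median on at least 2 of its arrays) and 12 in the memory cultures, and each gene kept at least 1. The 4 that passed in neither were Nr4a2 1433422_at, 1433423_at and 1450750_a_at and Nr4a3 1421079_at, which stayed at or below 5.75 on every array. Nr4a2 1447863_s_at and 1455034_at passed in the memory cultures alone. Each gene is described by its brightest probe set: Egr1 1417065_at, Egr2 1427683_at, Egr3 1436329_at, Nr4a1 1416505_at, Nr4a2 1450749_a_at, Nr4a3 1438796_at and Cd69 1428735_at.

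**Figure D1:**
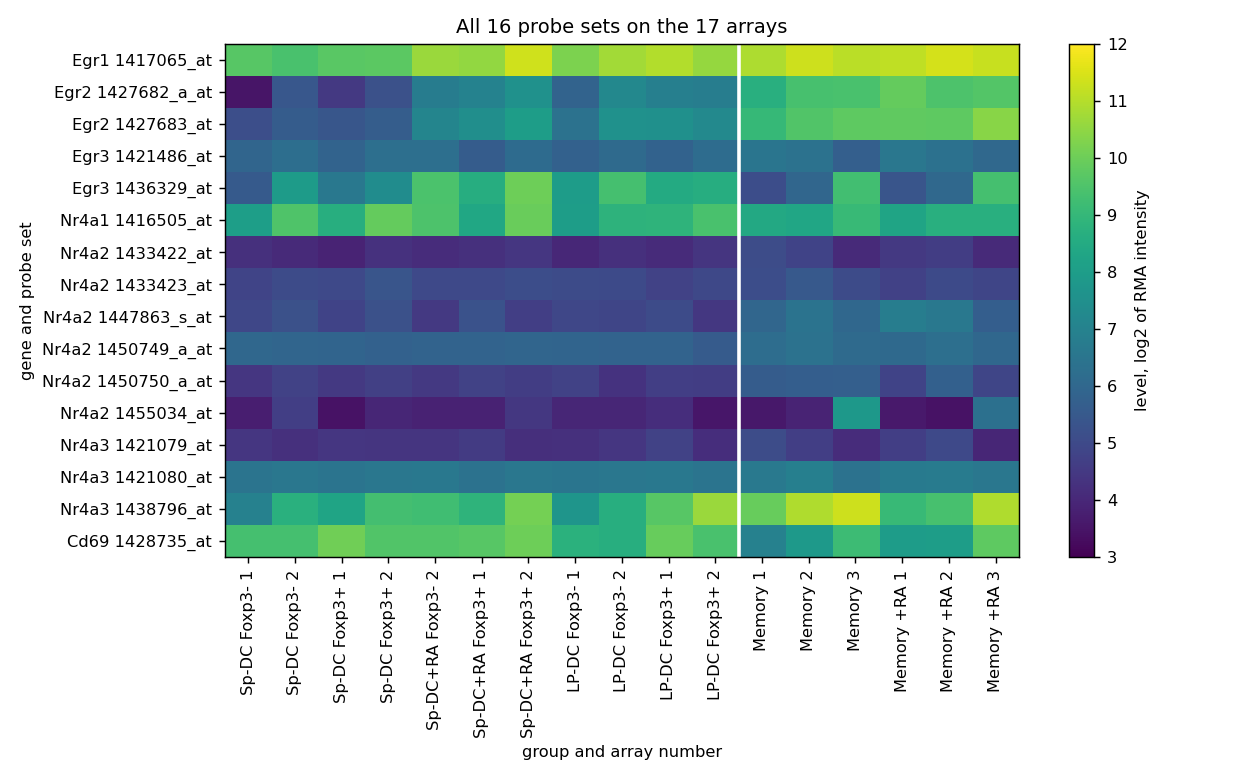
Colour gives the level (log2 of RMA intensity) of each of the 16 probe sets (rows) on each of the 17 arrays (columns, by group and array number), with a white line between the co-cultures and the memory cultures. The Nr4a2 probe sets are dark on nearly all arrays, and 1455034_at stands out at 7.80 and 6.32 on both memory arrays numbered 3.

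Each comparison was fitted with limma over all probe sets that passed the filter, without and with the array number as a block, and a probe set passed at an adjusted p below 0.05. Arrays of the same number deviated together from their group means (correlations of 0.48 to 0.76 in the co-cultures and 0.70 to 0.93 in the memory cultures), so values from the blocked fit stand beside the unblocked ones. Without the block no member probe set passed in any of the 10 comparisons, and every member call below is one of the blocked fit. P-values measure the spread between these pooled arrays, which may be technical. In sorted populations a change in RNA per cell and a change in the share of cells that express a gene cannot be told apart.

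Egr1 was well above the array medians on all 17 arrays. Its level was lowest in the Sp-DC cultures without RA, although Egr1 did not pass in either fit of any comparison below. Its levels were 9.67 and 9.41 in Sp-DC Foxp3- and 9.68 and 9.74 in Sp-DC Foxp3+ cells, the lowest 4 values of the series. They were 10.24 and 10.75 in LP-DC Foxp3-, 10.98 and 10.56 in LP-DC Foxp3+, 10.55 and 11.35 in Sp-DC plus RA Foxp3+ cells, and 10.64 on the Sp-DC plus RA Foxp3- array. Memory cells gave 10.91, 11.30 and 11.06 without RA and 11.13, 11.42 and 11.26 with it. Egr1 did not overlap between LP-DC and Sp-DC without RA, as 37.6% of all probe sets did not in Foxp3+ cells (20% as higher) and 30.9% in Foxp3- cells (14.5%). Nor did it overlap between Sp-DC with and without RA in Foxp3+ cells, as for 25% of all (11.9% as higher). The share of all probe sets on which the 4 Sp-DC arrays without RA stand apart from every other array was not counted. The LP-DC groups and the Sp-DC plus RA groups overlapped.

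Egr2 followed the same order with wider steps. On 1427683_at it lay below every array median in the Sp-DC cultures without RA, at 5.15 and 5.63 in Foxp3- and 5.40 and 5.66 in Foxp3+ cells. It was 6.39 and 7.54 in LP-DC Foxp3- cells, 7.51 and 7.22 in LP-DC Foxp3+ cells, 7.44 and 8 in Sp-DC plus RA Foxp3+ cells and 7.08 on the Sp-DC plus RA Foxp3- array. The highest levels were those of memory cells, 9.03, 9.55 and 9.77 without RA and 9.80, 9.75 and 10.39 with RA. The other Egr2 probe set, 1427682_a_at, gave the same grouping, from 3.50 to 5.43 in the Sp-DC cultures without RA, 5.87 to 7.56 in the other co-cultures and 8.68 to 9.89 in memory cells, and over the 11 co-culture arrays the 2 probe sets had a Pearson r of 0.96. The share of all probe sets that group in this way was not counted. Memory cells and co-cultures are set side by side as a description, since joint normalisation was not stated.

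Egr3 was measured by 2 probe sets with different patterns. On 1436329_at the levels were 5.55 and 7.94 in Sp-DC Foxp3-, 6.60 and 7.36 in Sp-DC Foxp3+, 7.96 and 9.34 in LP-DC Foxp3-, 8.49 and 8.59 in LP-DC Foxp3+ and 8.61 and 10.00 in Sp-DC plus RA Foxp3+ cells, with 9.46 on the Sp-DC plus RA Foxp3- array. All 4 Sp-DC arrays without RA were again below every other co-culture array, but 7.94 (Sp-DC Foxp3-) and 7.96 (LP-DC Foxp3-) were almost equal. How many of all probe sets separate in this way was not counted. Over the same arrays 1421486_at stayed between 5.61 and 6.30, next to the array medians, and its r with 1436329_at was 0.26. In memory cells 1436329_at read 5.11, 5.98 and 9.27 without RA and 5.37, 6.04 and 9.36 with it, so that both arrays numbered 3 lay above 9 and the other 4 at background or close to it. There 1421486_at ran the other way, at 6.50, 6.38 and 5.74 without RA and 6.57, 6.35 and 6.05 with it. Every statement about Egr3 below therefore rests on 1436329_at alone.

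**Figure D2:**
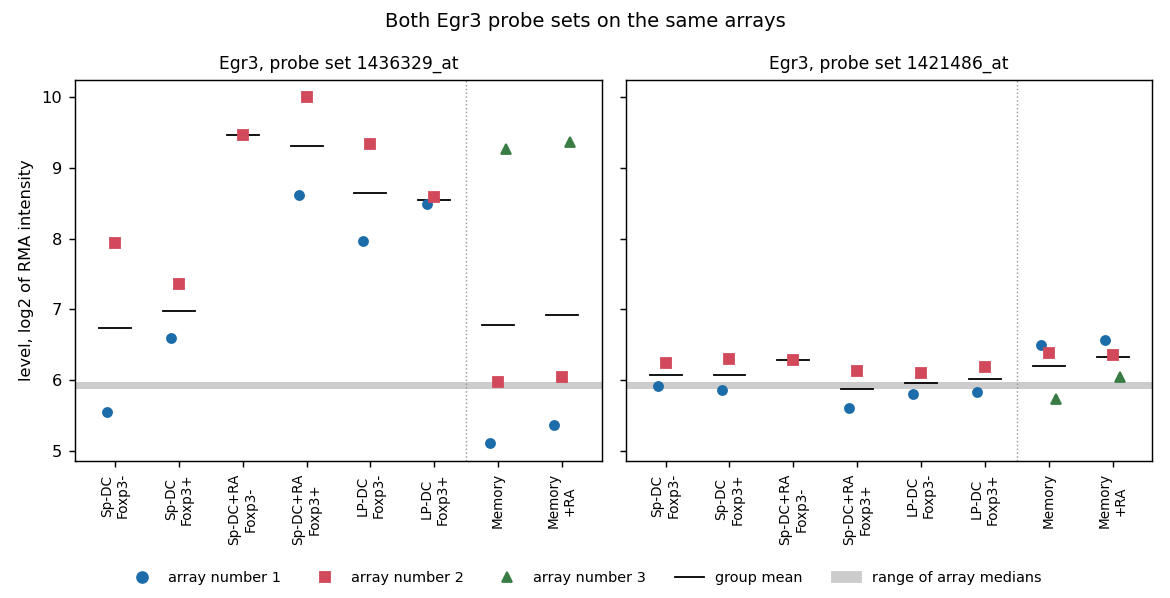
Levels (log2 of RMA intensity, vertical axis) of the 2 Egr3 probe sets by group, 1 point per array with colour and shape for the array number, bars for group means and a grey band for the range of the array medians. On the left 1436329_at runs from 5.11 to 10.00, and on the right 1421486_at stays between 5.61 and 6.57 on the same arrays.

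The Nr4a genes and Cd69 were ordered differently from the Egr genes. Nr4a1 lay between 8.01 and 9.94 on all 17 arrays, and its co-culture values followed the array number more than the group: the arrays numbered 1 gave 8.01 (LP-DC Foxp3-), 8.05 (Sp-DC Foxp3-), 8.36 (Sp-DC plus RA Foxp3+), 8.63 (Sp-DC Foxp3+) and 8.87 (LP-DC Foxp3+), and those numbered 2 gave 8.82, 9.52, 9.94, 9.86 and 9.40 in the same order. Nr4a3 on 1438796_at was 6.96 and 8.70 in Sp-DC Foxp3-, 7.69 and 8.63 in LP-DC Foxp3-, 8.25 and 9.31 in Sp-DC Foxp3+, 8.86 and 10.12 in Sp-DC plus RA Foxp3+ and 9.66 and 10.66 in LP-DC Foxp3+ cells. In each of these 5 groups the array numbered 2 was the higher one. Memory cells gave 9.92, 10.92 and 11.31 without RA and 9.05, 9.37 and 10.93 with it. The other Nr4a3 probe set that passed the filter, 1421080_at, lay between 6.39 and 6.88 on all 17 arrays and showed none of this. Nr4a2 stayed between 5.60 and 6.38 on 1450749_a_at, next to the array medians, in every group.

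Cd69 was 8.75 and 8.63 in LP-DC Foxp3- cells, the lowest group of the co-cultures, and 9.34 and 9.33 in Sp-DC Foxp3- cells. The Foxp3+ groups were higher, at 9.91 and 9.40 with LP-DC, 9.65 and 10.00 with Sp-DC plus RA and 10.05 and 9.57 with Sp-DC. The single Sp-DC plus RA Foxp3- array gave 9.57. Memory cells gave 6.96, 7.85 and 9.18 without RA and 7.96, 8.01 and 9.78 with RA, a spread of more than 1.7 log2 units within each group.

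**Figure D3:**
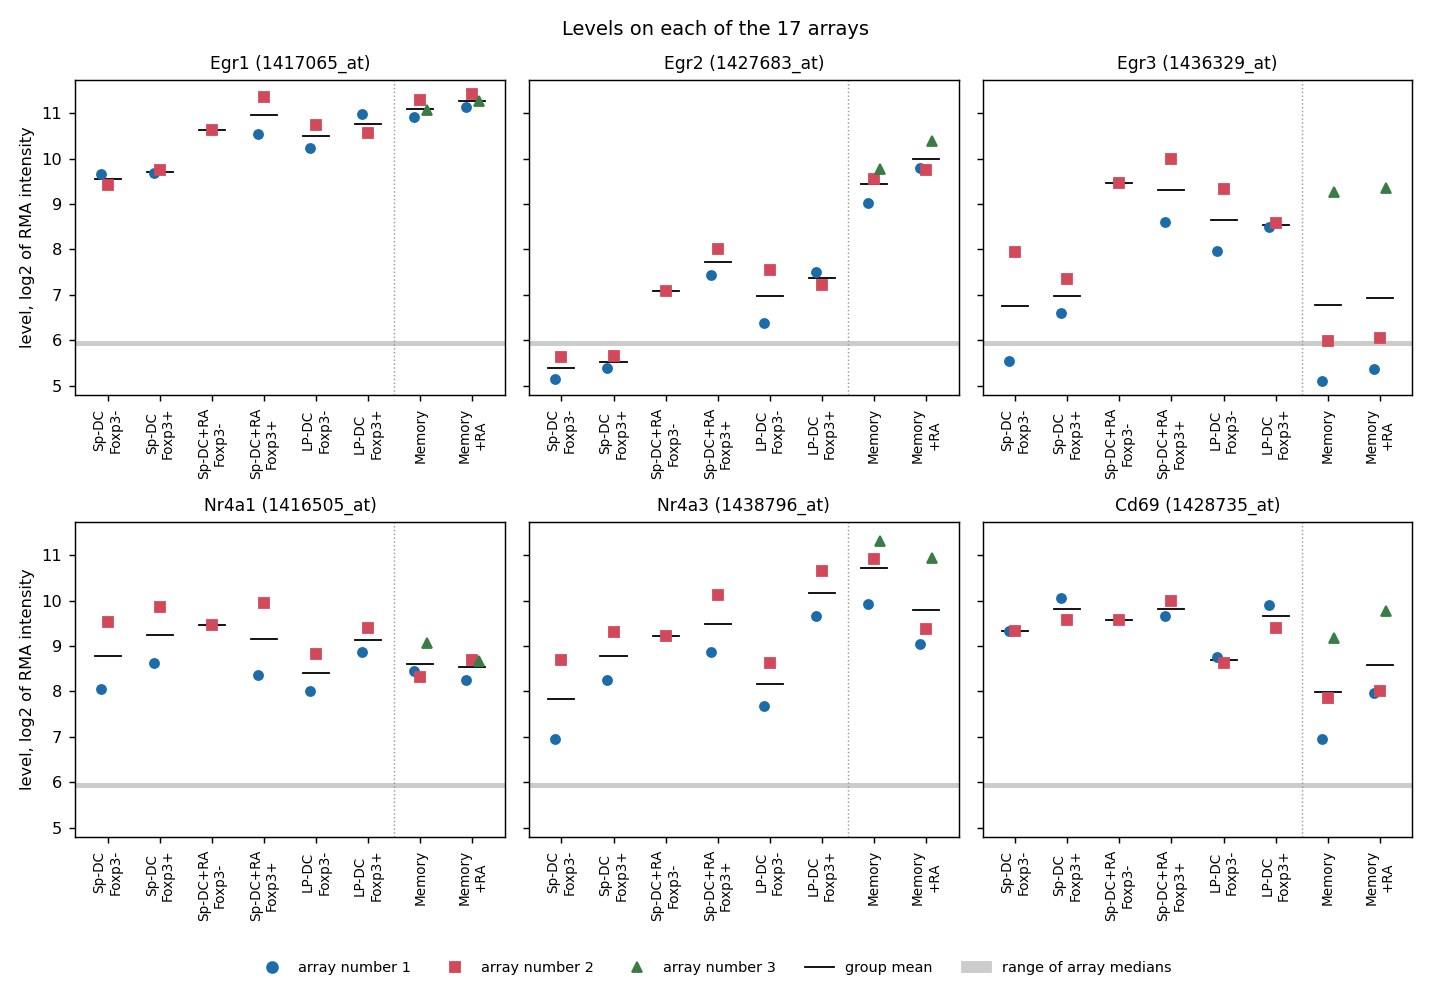
Levels (log2 of RMA intensity, vertical axis) of 6 genes by group, 1 point per array, with colour and shape for the array number, bars for group means, a grey band for the range of the array medians and a dotted line between co-cultures and memory cultures. In the Egr panels the Sp-DC groups without RA are the lowest of the co-cultures, and in the Nr4a3 panel every Foxp3+ group mean lies above the Foxp3- group mean of the same culture.

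The first comparison was Foxp3+ against Foxp3- cells sorted from the same kind of culture. Nr4a3 was the member with the largest difference, and Cd69 was higher too, whereas Egr1, Egr2 and Egr3 did not pass. Averaged over the 3 cultures, Nr4a3 was higher in Foxp3+ cells by 1.27 ± 0.12 (adjusted p = 9e-04, limma with the block), a 2.41-fold difference, and without the block by 1.07 ± 0.44 (adjusted p = 0.617). Cd69 was higher by 0.54 ± 0.13 (adjusted p = 0.047 with the block) and by 0.57 ± 0.15 without it (adjusted p = 0.215). The blocked fit called 2 of the 10 member probe sets, both higher, where 4.2% of all 24584 probe sets passed and 2.53% passed as higher. The unblocked fit called 0 members, 129 probe sets in all (0.525%), and 1793 at an unadjusted p under 0.05. Egr1 differed by 0.28 ± 0.17 (adjusted p = 0.546), Egr2 1427683_at by 0.47 ± 0.17 (0.211), Egr3 1436329_at by 0.19 ± 0.26 (0.87) and Nr4a1 by 0.47 ± 0.15 (0.141), all with the block. In that fit 7 of the 10 members were on the higher side, as were 47.8% of all probe sets.

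With LP-DC the Nr4a3 levels of 9.66 and 10.66 in Foxp3+ cells did not overlap 7.69 and 8.63 in Foxp3- cells, and the difference was almost the same in both array numbers, 1.97 and 2.03. The blocked fit gave 2.00 ± 0.19 (adjusted p = 0.00155), a 4-fold difference, and the unblocked fit 2.00 ± 0.70 (adjusted p = 0.63). Leaving out any 1 of the 11 arrays kept this call, with an adjusted p of at most 0.015. Groups did not overlap for 28.1% of all probe sets in this comparison, 15.1% as higher. Cd69 did not overlap either and was higher by 0.96 ± 0.20 (adjusted p = 0.0355 with the block, 0.251 without). Here 2 of the 10 members passed with the block, against 2.84% of all probe sets (2.01% as higher), and 0.0203% of all without it. Nr4a1, at 8.87 and 9.40 against 8.01 and 8.82, was higher in both numbers (0.86 and 0.58) without passing (adjusted p = 0.198 with the block).

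With Sp-DC no member passed in either fit. Nr4a3 was higher in Foxp3+ cells in both numbers, by 1.28 and 0.61, and the blocked fit gave 0.95 ± 0.19 (adjusted p = 0.0788). Cd69 differed by 0.47 ± 0.20 (adjusted p = 0.455 with the block). The share of all probe sets called here was 0.427% with the block and 0% without it, where 816 had an unadjusted p under 0.05. On the 1 matched pair of arrays with Sp-DC plus RA, both numbered 2, Nr4a3 was higher in Foxp3+ cells by 0.89 and Cd69 by 0.43. The difference between the LP-DC and the Sp-DC effect was tested directly and did not pass for Nr4a3 (1.05 ± 0.27, adjusted p = 0.871 with the block) or Cd69 (0.49 ± 0.28, adjusted p = 0.999), and no probe set of the array passed that test in either fit (187 had an unadjusted p under 0.05 without the block and 953 with it).

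The Cd69 calls were less settled than those of Nr4a3. In the mean of the 3 cultures, leaving out LP-DC Foxp3- number 1 or 2, LP-DC Foxp3+ number 1, Sp-DC plus RA Foxp3+ number 2, Sp-DC Foxp3- number 1 or 2 or Sp-DC Foxp3+ number 1 ended the Cd69 call, with an adjusted p of up to 0.168. With LP-DC the call ended without any 1 of the 4 LP-DC arrays or either Sp-DC Foxp3- array (up to 0.322). The summed intensity of 6 CD8 T and NK cell markers also differed between the sorted fractions. It was 5100 to 6850 in LP-DC Foxp3- against 1480 to 1970 in LP-DC Foxp3+ cells, and 7370 to 7590 against 3870 to 5060 with Sp-DC. Of these markers Cd8b1 and Ncr1 were below the median on all arrays and 4 were tested. In the mean of the cultures 2 of the 4 fell in Foxp3+ cells with the block, Klrd1 (-2.14 ± 0.15, adjusted p = 0.000254, and 0.0227 without the block) and Gzma (-2.86 ± 0.47, adjusted p = 0.00875). With LP-DC 3 of the 4 fell with the block, Cd8a, Klrd1 and Gzma, and the median difference of the 4 was -1.91 beside 0.01 over all probe sets. Their part in the Nr4a3 and Cd69 differences was not tested.

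Among 38 other genes that T cell receptor signalling induces early, 36 were tested, and 10 were higher in Foxp3+ cells with the block and 0 lower, with a median difference of 0.21 beside -0.01 over all probe sets. The largest were the MAP kinase phosphatase Dusp4 (1.81 ± 0.15, adjusted p = 0.000644), the costimulatory receptors Tnfrsf9 (1.29 ± 0.16, adjusted p = 0.00224) and Tnfrsf4 (1.18 ± 0.12, adjusted p = 0.00104) and the activation marker Cd83 (1.18 ± 0.10, adjusted p = 0.000644). Dusp4, Cd83 and the kinase Pim1 also passed without the block. With LP-DC alone 10 were higher and 0 lower with the block, with a median of 0.51 beside 0.01, and with Sp-DC alone none passed and the median was 0.21 beside -0.01. Of 12 genes linked to Nr4a factors in T cells 9 were tested and 4 were higher with the block: the interleukin 2 receptor chain Il2ra (1.58 ± 0.26, adjusted p = 0.00925), the Ikaros family gene Ikzf4 (0.77 ± 0.11, adjusted p = 0.00427), the inhibitory receptor Ctla4 (0.64 ± 0.13, adjusted p = 0.027) and Bach2 (0.34 ± 0.08, adjusted p = 0.0466). With LP-DC alone 4 of the 9 were higher too, Il2ra (1.99 ± 0.41, adjusted p = 0.0353), Ctla4 (1.01 ± 0.21, adjusted p = 0.0348), Ikzf4 (0.98 ± 0.17, adjusted p = 0.0164) and Ikzf2 (0.82 ± 0.18, adjusted p = 0.0419). In the mean of the cultures Ikzf4 alone of them also passed without the block (adjusted p = 0.0428). Il2ra and Ikzf2 also belonged to the genes listed as a check of the Foxp3 sort, with Foxp3, Gpr83 and Izumo1r. Their rise in Foxp3+ cells is therefore not separate from the sort. Among 17 genes linked to Egr2 and Egr3 in T cells, 1 was higher with the block in the mean of the 3 cultures, the cytokine signalling inhibitor Socs3 (0.44 ± 0.09, adjusted p = 0.0288).

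**Figure D4:**
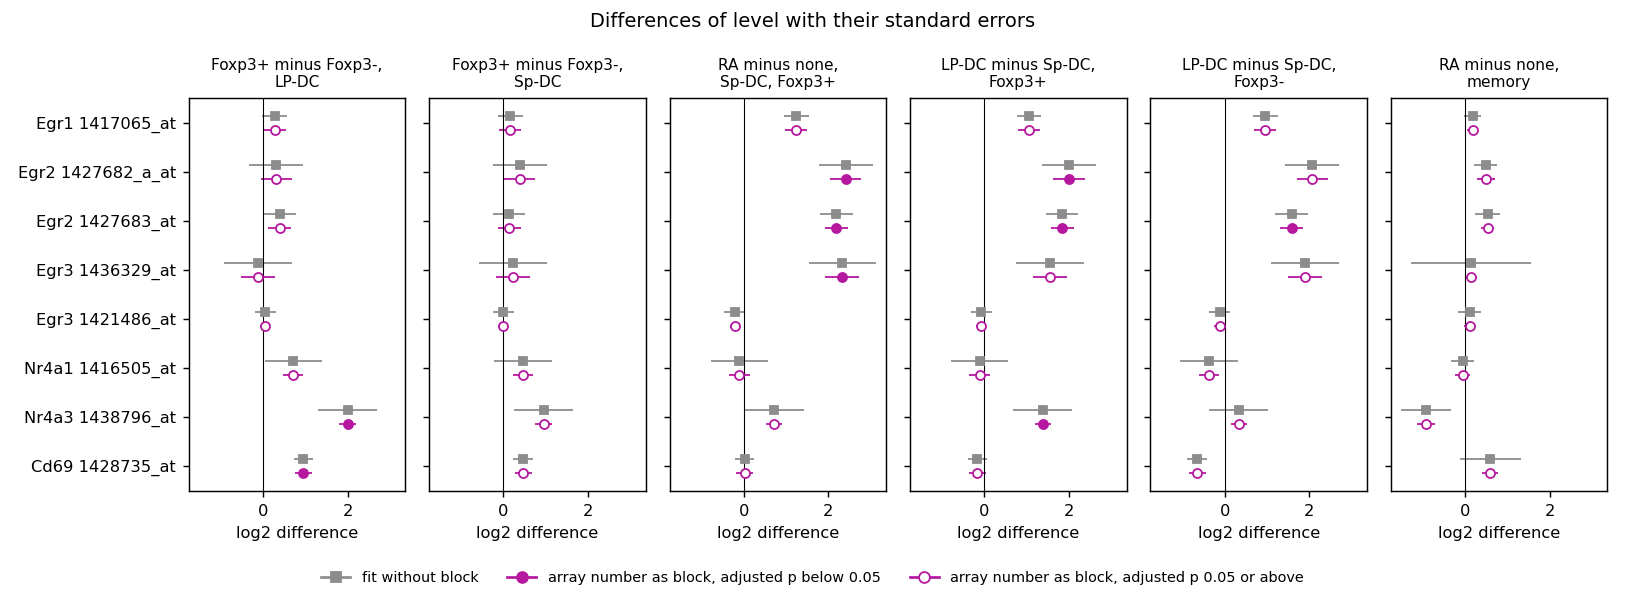
Log2 differences of level (horizontal axis, points with standard errors) of 8 member probe sets in 6 comparisons, with grey squares for the fit without a block and circles for the fit with the array number as a block, filled where its adjusted p is below 0.05. Nr4a3 and Cd69 are filled in the Foxp3 panel for LP-DC, both Egr2 probe sets in the RA and LP-DC panels of Foxp3+ cells, and no circle is filled for RA in memory cells.

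The next comparisons asked what RA and the source of the dendritic cells changed. RA in Foxp3+ cells of the Sp-DC cultures went with higher Egr2 and Egr3. Egr2 1427683_at was 7.44 and 8 with RA and 5.40 and 5.66 without, a difference of 2.19 ± 0.27 (adjusted p = 0.00563 with the block, 0.18 without). The arrays without RA lay below the array medians, so this size is uncertain. With those arrays set to their medians, the group means differed 3.46-fold, a value that leaves out the spread between arrays. Egr2 1427682_a_at, at 6.98 and 7.56 against 4.50 and 5.22, differed by 2.41 ± 0.37 (adjusted p = 0.0191 with the block, 0.671 without). With the low arrays set to their medians in the same way, its means differed 2.53-fold. Egr3 1436329_at, at 8.61 and 10.00 against 6.60 and 7.36, differed by 2.33 ± 0.40 or 5.02-fold (adjusted p = 0.0375 with the block, 0.984 without). All 3 were higher by more than 2 log2 units in both array numbers.

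Egr1, at 10.55 and 11.35 with RA against 9.68 and 9.74, differed by 1.24 ± 0.26 and did not pass (adjusted p = 0.0802 with the block). In the alternative of 1 blocked fit over all arrays Egr1 passed (limma, adjusted p = 0.0369). Nr4a3 differed by 0.72 ± 0.19 (adjusted p = 0.151 with the block). Nr4a1 differed by -0.10 ± 0.24 and Cd69 by 0.02 ± 0.20, with the 2 array numbers on opposite sides of 0 for both genes. The blocked fit thus called 3 of the 10 members, all higher, where 0.744% of all probe sets passed (0.427% as higher), while the unblocked fit called 0 members and 0.0936% of all, with 1102 probe sets at an unadjusted p under 0.05. As 2 of the 3 belong to Egr2, the calls cover 2 of the 7 genes. The call for Egr2 1427683_at ended without either Sp-DC plus RA Foxp3+ array (adjusted p up to 0.0871). The calls for Egr2 1427682_a_at and Egr3 1436329_at ended without any 1 of the 4 arrays compared (up to 0.199 and 0.275). On the single Foxp3- array with RA, Egr2 1427683_at was higher than on the Sp-DC Foxp3- array of the same number by 1.45, Egr3 1436329_at by 1.52 and Egr1 by 1.22, with no replicate to test this.

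LP-DC, cultured without added RA, were compared with the same Sp-DC arrays, so these values share their controls with the RA comparison. In Foxp3+ cells Egr2 1427683_at was 7.51 and 7.22 with LP-DC, higher than with Sp-DC by 1.84 ± 0.27 (adjusted p = 0.0322 with the block, 0.433 without). Egr2 1427682_a_at was higher by 2.00 ± 0.37 (adjusted p = 0.0486 with the block, 0.0519 with median-centring). With the Sp-DC arrays set to their medians these differences of means came to 2.7-fold and 1.91-fold. Nr4a3 was higher by 1.38 ± 0.19 (adjusted p = 0.0293 with the block, 0.773 without). Egr1 (1.06 ± 0.26, adjusted p = 0.0801) and Egr3 1436329_at (1.56 ± 0.40, adjusted p = 0.088) did not pass with the block, and Cd69 differed by -0.16 ± 0.20 (adjusted p = 0.771). The blocked fit called 3 of the 10 members, all higher and from 2 of the 7 genes, and 0.777% of all probe sets (0.549% as higher). The unblocked fit called no probe set at all, with 1800 at an unadjusted p under 0.05.

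In Foxp3- cells Egr2 1427683_at was 6.39 and 7.54 with LP-DC against 5.15 and 5.63 with Sp-DC, higher by 1.58 ± 0.27 (adjusted p = 0.0484 with the block, 0.648 without). With the Sp-DC arrays set to their medians the means differed 2.08-fold. Egr2 1427683_at was the 1 member of 10 called, where 0.488% of all probe sets passed (0.146% as higher). Without the block 0% passed, with 1458 at an unadjusted p under 0.05. The second Egr2 probe set differed by 2.07 ± 0.37 (adjusted p = 0.0511), Egr3 1436329_at by 1.90 ± 0.40 (0.073) and Egr1 by 0.96 ± 0.26 (0.118), all with the block. Nr4a3 differed by 0.33 ± 0.19 (adjusted p = 0.435 with the block). Cd69 went the other way, at 8.75 and 8.63 against 9.34 and 9.33, with no overlap (as for 30.9% of all probe sets, 16.4% as lower) and a difference of -0.65 ± 0.20 that did not pass (adjusted p = 0.155 with the block).

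Several single arrays ended these LP-DC calls. For Egr2 1427683_at in Foxp3+ cells they were LP-DC Foxp3+ number 2, either Sp-DC plus RA Foxp3+ array, either Sp-DC Foxp3- array and Sp-DC Foxp3+ number 2 (adjusted p up to 0.335), and the same arrays with LP-DC Foxp3+ number 1 ended the call of 1427682_a_at (up to 0.464). For Nr4a3 they were either LP-DC Foxp3+ array, either Sp-DC plus RA Foxp3+ array and Sp-DC Foxp3+ number 2 (up to 0.33). For Egr2 1427683_at in Foxp3- cells they were LP-DC Foxp3- number 2, either Sp-DC plus RA Foxp3+ array and either Sp-DC Foxp3- array (up to 0.498). The summed intensity of 12 dendritic cell markers was lower with LP-DC, at 1300 to 1470 in Foxp3- and 1640 to 1670 in Foxp3+ cells, than with Sp-DC, at 1940 to 2720 and 2060 to 2830, or with Sp-DC plus RA in Foxp3+ cells, at 1950 to 2880. Itgax, H2-Aa and Xcr1 were below the array median on all 17 arrays. In each co-culture group with 2 arrays, 7 of the 12 markers were above the median on both. On the single Sp-DC plus RA Foxp3- array 9 were. H2-Ab1 and Cst3 were the markers well above the median in the co-cultures. H2-Ab1 fell with LP-DC in Foxp3- cells (-1.28 ± 0.21, adjusted p = 0.0484 with the block). The part of these markers in the LP-DC differences was not tested. In Foxp3+ cells the CD8 T and NK cell marker sum was 1480 to 1970 with LP-DC and 2260 to 2800 with Sp-DC plus RA against 3870 to 5060 with Sp-DC, and its part was not tested either.

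Foxp3+ cells of the LP-DC cultures and of the Sp-DC plus RA cultures were also compared directly. No member passed in either fit, where 1.26% of all probe sets passed with the block and 0.0529% without it (1306 at an unadjusted p under 0.05). Egr2 1427683_at differed by -0.35 ± 0.27, Egr3 1436329_at by -0.77 ± 0.40, Egr1 by -0.18 ± 0.26 and Nr4a3 by 0.67 ± 0.19 (adjusted p = 0.142) with the block. S1pr1, the receptor that Cd69 holds inside the cell, was higher with LP-DC by 0.93 ± 0.17 (adjusted p = 0.0361 with the block, 0.324 without), while Cd69 differed by -0.17 ± 0.20 (adjusted p = 0.785). Of the listed genes Cd83 (1.45 ± 0.16, adjusted p = 0.00288) and Ikzf2 (0.93 ± 0.18, adjusted p = 0.0446) were higher with LP-DC and the ubiquitin ligase gene Rnf128 was lower (-1.35 ± 0.25, adjusted p = 0.0342), all with the block.

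Few other genes of the pathway passed with RA in the co-cultures. None of the 36 other early genes tested passed in the RA comparison, and their median difference was -0.05 beside -0.02 over all probe sets. Of the 17 Egr2 and Egr3 linked genes, 1 was higher, the cytokine gene Tnfsf11 (RANKL), at 9.95 to 10.26 with RA against 6.87 to 8.30 without, a difference of 2.52 ± 0.35 (adjusted p = 0.0129 with the block, 0.255 without). With LP-DC 2 of the 36 early genes were higher in Foxp3+ cells with the block, Cd83 (2.00 ± 0.16, adjusted p = 0.00679) at 8.06 to 8.08 against 5.85 to 6.30 and, with an adjusted p just below 0.05, the transcription factor gene Irf4 (1.10 ± 0.20). In Foxp3- cells 1 was lower with LP-DC, Tnfrsf9 (-1.66 ± 0.26, adjusted p = 0.0384), and so was the Egr-linked cell cycle inhibitor Cdkn1a (-2.08 ± 0.31, adjusted p = 0.0384). No Egr co-repressor or family gene tested (Egr4, Nab1, Nab2) passed in any comparison, and Nab1 lay between 10.15 and 11.96 on the 17 arrays. Of 7 genes for retinoid receptors and their Nr4a partners 5 were tested, and the receptor gene Rarg passed once, higher in Foxp3+ than Foxp3- cells with LP-DC (0.62 ± 0.13, adjusted p = 0.0371 with the block). Of 31 genes of T cell receptor signalling 26 had a probe set, all 26 were above the array median on all arrays, and none passed in a co-culture comparison. In memory cells Rasgrp1, which activates Ras after receptor signalling, was higher with RA (0.70 ± 0.14, adjusted p = 0.0457 with the block).

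In memory cells RA changed no member past the threshold in either fit. The blocked fit called 0 of the 12 member probe sets tested, where 2.62% of all 25157 probe sets passed, and the unblocked fit 0.0517% (846 at an unadjusted p under 0.05). The nearest was Nr4a3, which was lower with RA in all 3 numbers (-0.87, -1.54 and -0.38 log2 units), and the blocked fit gave -0.93 ± 0.21 (adjusted p = 0.0782). Without both arrays numbered 3 the difference was -1.21 ± 0.22 and passed (adjusted p = 0.0474), and it also passed without either array numbered 1 (adjusted p = 0.0364 and 0.0347). Without either array numbered 2 it was -0.63 and did not pass (adjusted p = 0.239 and 0.241), nor did it without 1 array numbered 3 alone (0.0531 and 0.0532). Egr2 1427683_at was higher with RA in all 3 numbers, by 0.77, 0.20 and 0.62, and did not pass (0.53 ± 0.16, adjusted p = 0.166 with the block). The other Egr2 probe set, 1427682_a_at, did not overlap between the groups, as 6.97% of all probe sets did not, and differed by 0.49 ± 0.22 (adjusted p = 0.4). Cd69 was higher in all 3 by 1.00, 0.16 and 0.60 (0.59 ± 0.18, adjusted p = 0.18), and Egr3 1436329_at differed by 0.14 ± 0.13.

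Both memory arrays numbered 3 stood apart in several members. The mean of the arrays numbered 3 exceeded that of numbers 1 and 2 by 3.69 log2 units for Egr3 1436329_at, which 76 of the 25157 probe sets tested surpassed, and by 3.44 for Nr4a2 1455034_at, which 134 surpassed. Nr4a2 1455034_at was 3.59 and 3.88 on the memory arrays numbered 1 and 2 and 7.80 on number 3, and with RA it was 3.60, 3.43 and 6.32. The excess was 1.78 for Cd69 and 1.31 for Nr4a3 1438796_at, 0.55 for Egr2 1427683_at and -0.03 for Egr1. Both number 3 arrays lay above the other 4 in 34.5% of all probe sets tested. The labels describe the arrays numbered 3 in the same terms as numbers 1 and 2, and what set them apart was not tested.

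Other early genes changed in both directions with RA in memory cells, 4 higher and 5 lower of the 35 tested with the block. The largest rises were Fos (2.06 ± 0.19, adjusted p = 0.00203), Dusp6 (1.53 ± 0.16, adjusted p = 0.00311), Jun (1.20 ± 0.13, adjusted p = 0.00405) and the NF-kB inhibitor Nfkbid (0.79 ± 0.15, adjusted p = 0.0379). The largest falls were Ier3 (-3.09 ± 0.16, adjusted p = 0.000206), Atf3 (-2.61 ± 0.16, adjusted p = 0.000387), Fosl2 (-1.51 ± 0.13, adjusted p = 0.00164) and Tnfrsf9 (-0.91 ± 0.15, adjusted p = 0.0208). None of these passed without the block. Of the Egr2 and Egr3 linked genes tested, 2 were lower in both fits, the cytokine Il10 (10.09 to 10.54 without RA and 7.37 to 7.61 with it, -2.84 ± 0.20, adjusted p = 0.0187 without the block) and Ndrg1 (10.06 to 10.36 against 7.37 to 8.04, -2.57 ± 0.24, adjusted p = 0.0489 without the block). Fasl (1.32 ± 0.19, adjusted p = 0.0116) and Tnfsf11 (1.11 ± 0.18, adjusted p = 0.019) were higher with the block.

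The RA effect was compared between the 2 kinds of cell in 1 fit over all 17 arrays. These differ in cells, stimulus, TGFbeta dose and time, which cannot be told apart from the cell type. With the block the RA effect was lower in memory cells than in Foxp3+ cells for Egr2 1427683_at (-1.66 ± 0.33, adjusted p = 0.0423) and for Nr4a3 (-1.65 ± 0.32, adjusted p = 0.0353). The Nr4a3 effects themselves had opposite signs, 0.72 in Foxp3+ and -0.93 in memory cells, and neither passed on its own (limma with the block, adjusted p = 0.151 and 0.0782). The Egr2 value rests on Sp-DC Foxp3+ levels below the array medians, and with 32 added to the intensities it was -1.13 and did not pass (adjusted p = 0.104). Egr3 1436329_at (-2.19 ± 0.47, adjusted p = 0.0606) and Egr1 (-1.05 ± 0.31, adjusted p = 0.177) did not pass. Thus 2 of the 12 members tested there passed, both lower, where 0.864% of all 26617 probe sets did (0.334% as lower). Without the block no member passed and 0.0225% of all did, with 613 at an unadjusted p under 0.05. The Egr2 call ended without any 1 of the arrays of Sp-DC plus RA Foxp3+, Sp-DC Foxp3+, Sp-DC Foxp3-, memory or memory plus RA cells (adjusted p up to 0.242). The Nr4a3 call ended without any 1 of the Sp-DC plus RA Foxp3+ or Sp-DC Foxp3+ arrays or of the memory arrays numbered 1 or 2, with or without RA (up to 0.203). The CD8 T and NK cell marker sum was 987 to 1400 in memory cells with RA and 502 to 756 without, and the summed heat shock genes gave 23000 to 27400 in the memory cultures against 11500 to 18400 in the co-cultures. The part of either was not tested.

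How alike the members were over the 11 co-culture arrays is a description, since these arrays share groups and array numbers. Egr1 and Egr2 1427683_at had a Pearson r of 0.96, Egr2 1427683_at and Egr3 1436329_at 0.90, and Egr1 and Egr3 1436329_at 0.82. Nr4a1 and Nr4a3 had 0.75, and Nr4a3 had 0.59 with Egr1, 0.65 with Egr2 1427683_at and 0.68 with Egr3 1436329_at. Egr1 had 0.20 with Nr4a1 and 0.13 with Cd69, and Nr4a3 had 0.39 with Cd69. Among 11839 genes the nearest to Egr1 were Pip5k1c (0.948), Tnfrsf25 (0.914) and Itga4 (0.914), and to Egr2 Poglut1 (0.919), Bclaf3 (0.914) and Xpo5 (0.909). For Egr3 they were Bckdk (0.923), Zbed5 (0.923) and Efr3a (0.909), for Nr4a1 Wsb1 (0.968), Arhgef11 (0.965) and Fnip1 (0.962), and for Nr4a3 Zfp467 (0.953), Dock10 (0.949) and Birc3 (0.947). Cd69 was most like Phc3 (0.969), Cd24a (0.945) and Zcchc24 (0.940).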

How the data were processed

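RNA of 17 samples was amplified and hybridised, 1 sample per array, and the deposited values are linear intensities that the authors made with RMA in GenePattern, per the series' design text. Neither its version nor whether both experiments were normalised together was stated. Log2 of these intensities was tested with limma 3.58.1 (R 4.3.3), 1 coefficient per group, separately for the co-cultures and the memory cultures and jointly for the difference of the RA effect. Probe sets that exceeded their array's median on 2 or more arrays were kept, and p-values were adjusted by Benjamini-Hochberg over all of them. Arrays of the same number deviated together, so the fit with the number as a block is given too, although the labels do not say what the number stands for. The fits were also run on simulated data, which held an effect of the array number by design and so cannot show whether the block suits these arrays. No 2 arrays held identical values. The platform annotation names 1 gene for 34958 probe sets, several for 932 and none for 9211. Members and gene lists were chosen with earlier results of these data known. Genes were named as follows: every member, and up to 4 list genes per direction by size among those passing in either fit. Alternatives covered scaling, filter, an added constant of 32, 1 probe set per gene, 1 fit over all arrays and each array left out. The number of arrays limits the precision.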

Additional observations from a re-analysis of the deposited data

Results flagged for a closer look

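The effect of RA differed between memory cells and Foxp3+ cells of the Sp-DC cultures for 2 members by the test of the difference itself, in the fit with the array number as a block. For Egr2 1427683_at the difference, memory minus Foxp3+ cells, was -1.66 ± 0.33 on the log2 scale (limma, adjusted p = 0.0423), and RA went with higher values in both Foxp3+ pairs and in all 3 memory pairs. For Nr4a3 1438796_at it was -1.65 ± 0.32 (limma, adjusted p = 0.0353), with RA higher in both Foxp3+ pairs and lower in all 3 memory pairs. Neither passed without the block (adjusted p of 1 for both, limma). The Egr2 value rests on Sp-DC Foxp3+ levels below the array medians, and with 32 added to the intensities it was -1.13 (limma, adjusted p = 0.104). Leaving out 1 array ended the Egr2 call for 12 of the 17 arrays and the Nr4a3 call for 8. No group holds 4 or more arrays, so outliers within a group were not tested.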

How the results depend on the processing

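Without the block no member passed in any comparison, under any alternative run in that fit other than the block itself. Adding the block moved the probe sets called from 129 to 1032 for Foxp3+ over Foxp3- cells in the mean of the cultures (2 members), 5 to 699 with LP-DC (2 members), 0 to 105 with Sp-DC, 23 to 183 for RA in Foxp3+ cells (3 members), 0 to 191 (3 members) and 0 to 120 (1 member) for LP-DC over Sp-DC in Foxp3+ and Foxp3- cells, 13 to 310 for LP-DC over Sp-DC plus RA, 13 to 660 for RA in memory cells and 6 to 230 (2 members) for the difference of the RA effect. Without the block, other settings moved these counts as follows. Quantile normalization, no filter and an added 32 each gave 10 for the difference of the RA effect, and 1 probe set per gene gave 16 for LP-DC Foxp3+ over Foxp3- and 12 for RA in Foxp3+ cells. The fit over all arrays gave 37 (LP-DC) and 3 (Sp-DC) for Foxp3+ over Foxp3-, 2 for LP-DC over Sp-DC in Foxp3+ cells and 118 for RA in memory cells, and leaving out both memory arrays numbered 3 gave 363. Leaving out 1 array gave 0 to 114 for the mean of the cultures, 0 to 32 with LP-DC, 0 to 1 with Sp-DC, 3 to 23 for RA in Foxp3+ cells, 0 to 13 for LP-DC over Sp-DC plus RA, 0 to 6 for RA in memory cells and 3 to 12 for the difference of the RA effect. For Cd69 with RA in memory cells it gave -0.01 to 1.18, reversed without the memory plus RA array numbered 3.

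With the block, alternatives chosen after seeing the data moved the members called. In the mean of the cultures 1 passed under median-centring, no filter, an added 32 or 1 fit over all arrays, since Cd69 dropped out (adjusted p up to 0.0619), and for LP-DC over Sp-DC in Foxp3- cells 0 passed under the first 3, 2 under the 60th percentile filter and 3 in 1 fit over all arrays. For RA in memory cells 1 passed, Nr4a3, with 1 probe set per gene, in 1 fit over all arrays and without both arrays numbered 3. For RA in Foxp3+ cells Egr1 also passed in 1 fit over all arrays (1.24 ± 0.24, limma, adjusted p = 0.0369). Leaving out 1 array gave 1 to 4 members in the mean of the cultures, 1 to 2 with LP-DC, 0 to 3 for RA in Foxp3+ cells and for LP-DC over Sp-DC in either fraction, 0 to 2 for RA in memory cells and 0 to 3 for the difference of the RA effect. The Nr4a3 calls between Foxp3+ and Foxp3- cells, in the mean and with LP-DC, held under all 7 other settings. With LP-DC the call held with each of the 11 arrays left out. In the mean it held in each of the 10 omissions run. The single Sp-DC plus RA Foxp3- array could not be left out there, since the mean needs it. Of the values of member probe sets with an adjusted p under 0.2 in the blocked fit, none changed direction in that fit. Adding 32 ended the Egr2 1427683_at call for the difference of the RA effect (-1.13, adjusted p = 0.104) and made that of Egr3 1436329_at pass (0.0384), as did 1 probe set per gene (0.0353). Median-centring (0.0519) and no filter (0.0513) ended the call of Egr2 1427682_a_at for LP-DC over Sp-DC in Foxp3+ cells. Probe sets 1450749_a_at of Nr4a2 and 1421486_at of Egr3 lie near the array medians, which limits what they can show.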
